A study of Mus musculus with 12 samples.

Results

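The comparison described here set H3K4me3 in lincRNA-p21 knockout (KO, lincRNA-p21-/-) mouse embryonic fibroblasts (MEFs) treated with doxorubicin against H3K4me3 in mock-treated KO MEFs. Its members were all peaks of the deposited lists of these conditions, 15095 in KO doxorubicin and 14326 in KO mock, together 29421 of the 128880 peaks in the 8 peak lists of the series. The cells were primary MEFs of a hybrid 129/B6 background, and doxorubicin was given at a labelled 0.5 mM for 24 h. That dose follows the labels and its unit could not be checked. The same mark in wild-type (WT) MEFs with doxorubicin and with mock treatment, and H3K27me3 in all 4 conditions, were used only to place the KO peaks. Every condition had 1 library of each mark, which leaves no replicate spread and no p-value, and every difference below describes these libraries. The labels used here say neither how the knockout was made nor how many embryos gave the cells.

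H3K4me3, trimethylation of lysine 4 of histone H3, is laid down by the SET1 and MLL complexes and marks the promoters of active and of poised genes, with wider domains at strongly expressed genes. H3K27me3 is the mark of Polycomb repressive complex 2, and promoters that carry it together with H3K4me3 are called bivalent and are typical of silent developmental regulators. Doxorubicin poisons topoisomerase II and breaks DNA, which activates the transcription factor p53. One of the transcripts that p53 switches on is lincRNA-p21, a noncoding RNA, and the series asks about its part in the expression of Polycomb targets and in the G1/S checkpoint.

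Each peak had a position and a score, which the authors' peak caller gave on a −10 log10 p-value scale, so that a higher score means a stronger call within its own library. No list held a score under 80, and scores piled up at a ceiling of 3100. The numbers in the peak names ran to 16487 in KO doxorubicin and 15841 in KO mock, with 1392 and 1515 missing. In the H3K27me3 lists of KO doxorubicin and KO mock 46.9% and 47.2% of the numbers were missing. Peaks that were called and then left out may thus be among those counted here as absent, which was not tested. In KO doxorubicin 5350 peaks (35.4%) were at or above that ceiling, against 1153 (8.05%) in KO mock, and the median score was 2141 in KO doxorubicin and 1162 in KO mock. The numbers of reads behind the lists are unknown, so scores of different lists were not read as levels. They were turned into percentiles within each list (0 for the weakest call, 100 for the strongest). Peaks covered 29.2 Mb in KO doxorubicin and 27.1 Mb in KO mock, with a median width of 1777 bp in KO doxorubicin and 1724 bp in KO mock.

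Most H3K4me3 peaks of either KO condition were also listed in the other, and those that were not were narrow and weak calls. With an overlap of 1 bp counted as shared, 1335 of 15095 KO doxorubicin peaks (8.84%, 95% interval 8.40 to 9.31%) had no peak in KO mock. In the other direction 385 of 14326 KO mock peaks (2.69%, 2.43 to 2.97%) had no peak in KO doxorubicin. These intervals are exact (Clopper-Pearson), cover counting error over peaks only and treat neighbouring peaks as independent, which they are not. When the same number of highest-scoring peaks was taken from each list, 803 peaks were listed with doxorubicin alone and 565 with mock alone, and at a score of at least 200 the counts were 1035 and 164. The size of the imbalance thus depended on which peaks were admitted. The median width of the doxorubicin-only peaks was 761 bp, and that of the mock-only peaks 819 bp. Of the doxorubicin-only peaks 80.6% were narrower than 1 kb, as were 79.2% of the mock-only peaks, against 16.8% and 14.5% of the whole KO doxorubicin and KO mock lists.

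The share of peaks without a counterpart dropped steeply with score. In the lowest score decile (the weakest 10% of calls) of the KO doxorubicin list 62.9% (60.4 to 65.3%) of the peaks were absent from KO mock, in the second decile 22.8%, in the third 2.39% and in the fourth 0.331%. In the KO mock list the corresponding shares absent from KO doxorubicin were 22.8% (20.7 to 25.1%), 3.77% and 0.279%, with 0 of 1433 in the fourth decile, which allows a share of up to 0.257%. The highest percentile reached by a doxorubicin-only peak was 39.0, and by a mock-only peak 23.2. Among the strongest calls of each list, the KO cells thus had the same H3K4me3 regions in both treatments at the level of presence.

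**Figure D1:**
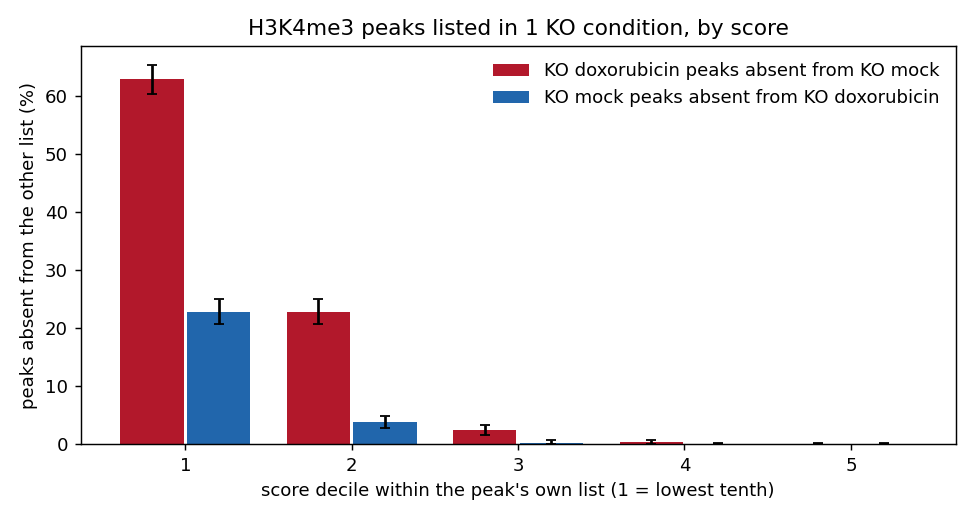
Share of H3K4me3 peaks of each KO list (vertical axis, %) that had no overlapping peak in the other KO list, by score decile within the list (horizontal axis, 1 lowest to 5). Red bars are doxorubicin peaks absent from mock, blue bars mock peaks absent from doxorubicin, and error bars are exact 95% binomial intervals over peaks. In the lowest decile the shares were 62.9% and 22.8%, and from the third decile on they were 2.39% or less.

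Width gave the same picture. Of the KO doxorubicin peaks of 500 bp or less 70.1% (108 of 154) were absent from KO mock, and of those between 500 and 1000 bp 40.6% were. Between 1000 and 1500 bp the share was 7.01%, and between 1500 and 2000 bp 0.963%. Of the 195 KO doxorubicin peaks wider than 5 kb 0 were absent from KO mock, which allows a share of up to 1.87%. The KO mock list ran parallel at lower shares, with 26.7% (20 of 75) of the peaks of 500 bp or less, 14.2% between 500 and 1000 bp and 1.98% between 1000 and 1500 bp absent from KO doxorubicin.

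Few of the peaks listed in 1 condition were the edge of a shared region. The median distance to the nearest peak of the other list was 21861 bp for doxorubicin-only peaks and 18446 bp for mock-only peaks. Only 170 (12.7%) of the doxorubicin-only and 51 (13.2%) of the mock-only peaks lay within 1 kb of one. Beyond 100 kb lay 222 doxorubicin-only peaks (16.6%) and 74 mock-only peaks (19.2%). Across the chromosomes the doxorubicin-only share ran from 6.45% on chromosome 14 to 11.8% (9.54 to 14.3%) on chromosome 3, and the mock-only share from 1.64% on chromosome 17 to 4.01% on chromosome 18.

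The peaks that KO cells had only in mock were much more often bivalent than those they had only with doxorubicin. Of the 385 mock-only peaks 224 (58.2%, 53.1 to 63.2%) overlapped an H3K27me3 peak of KO mock, while 12.1% of the KO mock peaks shared with KO doxorubicin did. Of the 1335 doxorubicin-only peaks 207 (15.5%, 13.6 to 17.6%) overlapped an H3K27me3 peak of KO doxorubicin, while 11.7% of the shared KO doxorubicin peaks did. H3K27me3 is itself more frequent at weak H3K4me3 peaks, so the shares were also taken within score deciles. In the lowest decile of the KO doxorubicin list 16.8% of the doxorubicin-only peaks and 43.4% of the shared peaks were at H3K27me3. In the lowest decile of the KO mock list the order was the other way round, with 56.0% of the mock-only and 24.9% of the shared peaks at H3K27me3. The second decile showed the same, with 12.8% of doxorubicin-only and 38.4% of shared peaks in KO doxorubicin, and 70.4% of mock-only and 32.9% of shared peaks in KO mock.

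Read from the side of the bivalent peaks, 39.6% of the H3K4me3 peaks at H3K27me3 in the lowest decile of KO doxorubicin were absent from KO mock, against 71.4% of those without H3K27me3. In the lowest decile of KO mock, 40.0% of the peaks at H3K27me3 were absent from KO doxorubicin, against 14.8% of those without H3K27me3. In the lowest decile H3K4me3 calls at H3K27me3 were thus absent from the other treatment about as often in each direction, and the surplus of doxorubicin-only peaks lay among those without H3K27me3. In WT cells the split ran otherwise. There 37.4% (34.8 to 40.0%) of 1359 doxorubicin-only peaks and 11.9% (8.57 to 15.8%) of 329 mock-only peaks were at H3K27me3, and 14.4% of the shared doxorubicin peaks and 16.3% of the shared mock peaks. This difference between KO and WT rests on 1 library per condition and mark and was not tested.

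The 2 groups also differed in where WT cells had the mark. Of the doxorubicin-only KO peaks 600 (44.9%) overlapped peaks in both WT lists, 233 (17.5%) in WT doxorubicin alone, 100 (7.49%) in WT mock alone and 402 (30.1%) in neither. Of the mock-only KO peaks 246 (63.9%) were in both WT lists, 38 (9.87%) in WT doxorubicin alone, 29 (7.53%) in WT mock alone and 72 (18.7%) in neither. The bivalent ones stood out in each group. Among the 224 mock-only peaks at H3K27me3 86.2% were in both WT lists, 96.0% in WT doxorubicin and 2.23% in neither WT list, while of the 161 mock-only peaks without H3K27me3 32.9% were in both and 41.6% in neither. Among the 207 doxorubicin-only peaks at H3K27me3 75.4% were in both WT lists and 9.18% in neither, and among the 1128 without H3K27me3 39.4% were in both and 34.0% in neither. KO peaks of 1 treatment that no WT list held were weak calls, at a median percentile of 4.34 of the KO doxorubicin list for the doxorubicin-only and 3.07 of the KO mock list for the mock-only ones. All peaks of the 2 groups were weak, at median percentiles of 6.62 for doxorubicin-only and 4.43 for mock-only. The same shares were not taken for all KO peaks or for shared peaks of like score. They therefore do not set these groups apart from other weak calls.

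**Figure D2:**
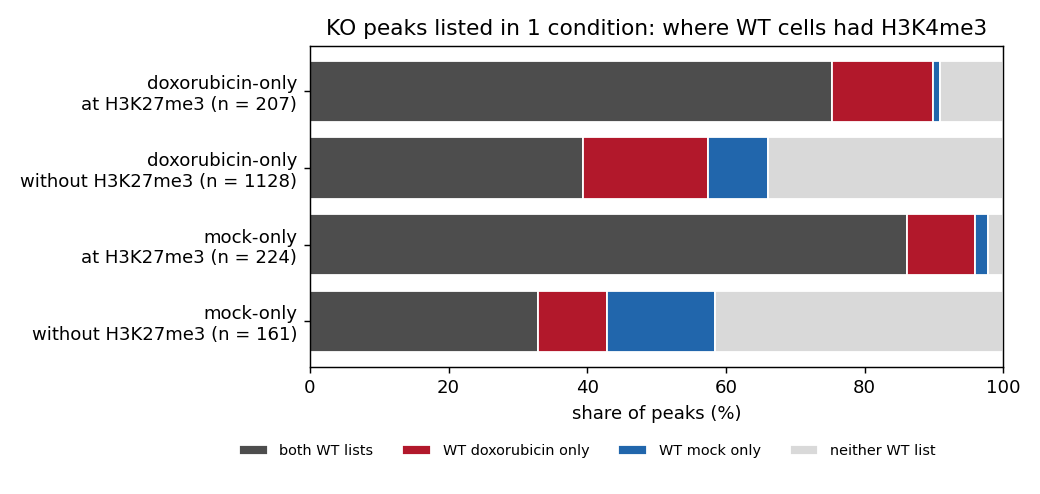
Share of KO H3K4me3 peaks listed in 1 condition (horizontal axis, %) that overlapped a WT H3K4me3 peak in both WT lists, in WT doxorubicin only, in WT mock only or in neither (colours). Rows split doxorubicin-only and mock-only peaks by overlap with an H3K27me3 peak of the same KO condition. Of the mock-only peaks at H3K27me3 86.2% lay in both WT lists and 2.23% in neither.

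The peaks that doxorubicin alone listed in KO cells were mostly not those that it alone listed in WT cells. Of the 1335 KO doxorubicin-only peaks 224 (16.8%) overlapped a WT doxorubicin-only peak, which is 221 (16.3%) of the 1359 in WT. Another 77 (5.77%) overlapped a WT mock-only peak, which is 23.4% of the 329 in WT. Of the 385 KO mock-only peaks 22 (5.71%) overlapped a WT mock-only peak, and 37 (9.61%) a WT doxorubicin-only peak. For scale, WT doxorubicin-only peaks made up 8.25% of the WT doxorubicin list, and WT mock-only peaks 2.21% of the WT mock list. The same overlaps were not taken over all KO peaks, so these shares do not say whether agreement between the genotypes was high or low.

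The strongest doxorubicin-only peak of KO cells was chr3:96077290-96079069 (mm9, as are all coordinates here). It was 1780 bp wide at percentile 39.0 in KO doxorubicin and had no peak in KO mock, the nearest KO mock peak being 2380 bp away. In WT cells it was listed with doxorubicin, at percentile 53.9, and not in mock, so at this region both genotypes had the mark in the doxorubicin list alone. No H3K27me3 list held it. The next, chr4:155572799-155575206 (2408 bp, percentile 38.9 in KO doxorubicin), had a KO mock peak at a distance of 251 bp and was in both WT lists, at percentile 28.0 in WT doxorubicin and 16.6 in WT mock. The third, chr16:23609685-23612362 (2678 bp, percentile 37.9 in KO doxorubicin), lay 88348 bp from the nearest KO mock peak. WT cells had it in both treatments, at percentile 28.1 in WT doxorubicin and 29.4 in WT mock.

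The fourth, chr17:4626136-4626732, was 597 bp wide at percentile 35.1 in KO doxorubicin, was in none of the other 7 lists and lay 280530 bp from the nearest KO mock peak. The other 6 ran in score from 1067 to 526 in KO doxorubicin. Of these, chr11:72114847-72116655 and chr11:118261534-118263515 were in both WT lists. A peak at chr9:48412284-48413501 was in WT doxorubicin and not in WT mock. The reverse held at chr6:3347667-3349689, which was in WT mock and not in WT doxorubicin.

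Another 2 of the 10 were bivalent and lay close together on chromosome 15. At chr15:102802549-102805019 the H3K4me3 peak was 2471 bp wide at percentile 33.4 in KO doxorubicin, absent from KO mock, at percentile 5.72 in WT doxorubicin, and absent from WT mock. H3K27me3 was listed there in all 4 conditions, at percentile 87.5 of its list in KO doxorubicin and 96.2 in KO mock, and 93.0 in WT doxorubicin and 21.2 in WT mock. At chr15:102784775-102787252 H3K4me3 was at percentile 24.2 in KO doxorubicin and absent from KO mock, and at percentile 30.6 in WT doxorubicin and 19.4 in WT mock. Its H3K27me3 percentile was 82.8 in KO doxorubicin and 88.4 in KO mock, and 91.8 in WT doxorubicin and 21.2 in WT mock. The WT mock H3K27me3 score was 100.04 at both of these regions, and each was covered in full. Both may therefore lie under the same wide WT mock peak, which was not tested. Their WT mock percentiles should not be read as separate local values. Together with 4 weaker ones, 6 of the 1335 doxorubicin-only peaks lay between 102751487 and 102833675 on this chromosome.

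Of the 10 strongest mock-only peaks 8 were bivalent, with H3K27me3 listed in all 4 conditions, and all 8 were H3K4me3 peaks in both WT lists. Over all 385 mock-only peaks 58.2% were at H3K27me3 in KO mock, and 86.2% of those were in both WT lists. These 10 peaks therefore do not set the strongest apart from the rest. The strongest mock-only peak, chr7:85722455-85723998 (1544 bp), was absent from KO doxorubicin and at percentile 23.2 in KO mock. In WT cells it was at percentile 60.8 with doxorubicin and 34.0 in mock. H3K27me3 there had a percentile of 98.8 in KO doxorubicin and 98.5 in KO mock, so both KO H3K27me3 lists had it among their strongest calls. At chr4:21605630-21606731 (1102 bp) H3K4me3 was absent from KO doxorubicin and at percentile 16.7 in KO mock, but at 68.4 in WT doxorubicin and 32.9 in WT mock. At chr7:133225080-133226140 (1061 bp) it was absent from KO doxorubicin and at 18.2 in KO mock, and at 42.6 in WT doxorubicin and 20.5 in WT mock. In KO cells the order at these 3 regions was set by their choice as mock-only peaks. In WT cells the doxorubicin list ranked each of the 3 above the mock list. That was also the common order in WT, where 62.3% of 1873 bivalent pairs below the ceiling ranked at least 10 points higher with doxorubicin.

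The same order held in WT at 3 more of the bivalent regions, chr6:6812569-6814074 (percentile 32.0 in WT doxorubicin, 27.6 in WT mock), chr8:15010872-15012566 (34.4 and 22.6) and chr5:144125281-144126482 (21.0 and 10.99). At chr3:34548464-34550619 the WT percentiles were 35.2 with doxorubicin and 35.1 in mock. At chr2:105527757-105529211 WT doxorubicin was the lower one, at 3.63, against 10.3 in WT mock. The 2 of the 10 without H3K27me3 were chr6:149514097-149515281, which was in both WT lists, and chr9:3024368-3027974, which was in no other list.

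That last peak belonged to a group of 6 mock-only peaks between 3001946 and 3037066 on chromosome 9, none of which was in any of the other 7 lists. The nearest KO doxorubicin peak lay 344 bp from chr9:3024368-3027974, so the KO doxorubicin list was not empty there. Leaving out the 100-kb window of this group left 379 mock-only peaks. No list of artefact-prone regions was applied, and whether this window is one was not tested. Of the 100-kb windows 117 held 2 or more doxorubicin-only peaks and 23 held 3 or more, and 18 held 2 or more mock-only peaks. Besides the chromosome 15 region, groups of 4 doxorubicin-only peaks lay at chr11:101001547-101038037, chr3:87713758-87792161 and chr18:37901624-37979815. In each group 3 of the peaks were also in WT doxorubicin, while 2, 4 and 2 of them, in the same order, were in WT mock. Groups of 3 that were in no other list lay at chr17:87223663-87227466 and chr5:139881422-139899606. The other mock-only group, 3 peaks at chr2:74517343-74531359, was in both WT lists and in all 4 H3K27me3 lists.

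Peaks shared one-to-one were slightly wider with doxorubicin in KO cells. A total of 12922 peaks overlapped exactly 1 peak of the other list, which overlapped no other, and these pairs made up 85.6% of the KO doxorubicin and 90.2% of the KO mock list. Their median log2 width ratio, doxorubicin over mock, was 0.065 (interval of the median over pairs 0.060 to 0.070), or 1.05-fold, and 63.2% (62.3 to 64.0%) of the pairs were wider with doxorubicin. The median width was 1863 bp in KO doxorubicin and 1758 bp in KO mock. Both edges contributed, since the start lay a median of 37 bp and the end 36 bp further out with doxorubicin. At least 1.5-fold wider with doxorubicin were 404 pairs (3.13%), and at least 1.5-fold narrower 152 (1.18%). By the mean width of the pair, the median ratio was between 0.038 and 0.077 in every class from 500 bp up, the class over 5 kb included.

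Of the 2.17 Mb by which the KO doxorubicin list exceeded the KO mock list, one-to-one pairs accounted for 1.29 Mb, doxorubicin-only peaks for 1.09 Mb, and peaks that met several of the other list for 0.116 Mb. Mock-only peaks took away 0.331 Mb. A single doxorubicin peak spanned 2 or more mock peaks in 413 cases, with a median gap of 97 bp between the mock peaks, and a single mock peak spanned 2 or more doxorubicin peaks in 242 cases, with a median gap of 79 bp. An example is chr16:45096273-45099391, 1 peak in KO doxorubicin that met 4 in KO mock. In the opposite direction, chrX:95343774-95346635 was 1 peak in KO mock that met 3 in KO doxorubicin.

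The shift in width was not shared by the bivalent peaks of KO cells. The 1390 pairs at H3K27me3 in both conditions had a median log2 ratio of -0.053 (-0.071 to -0.033), and 41.7% (39.1 to 44.4%) were wider with doxorubicin. The 11167 pairs at H3K27me3 in neither condition had a median of 0.075 (0.071 to 0.079), and 66.1% were wider. At least 1.5-fold narrower with doxorubicin were 5.68% of the bivalent pairs and 0.582% of the pairs without H3K27me3, while 2.16% and 3.23% were at least 1.5-fold wider. Bivalent pairs were narrower to begin with (median 1185 bp in KO doxorubicin and 1232 bp in KO mock, against 1963 and 1851 bp without H3K27me3) and ranked lower. Within score deciles of KO mock the gap remained in the lowest 4, for instance with medians of -0.11 at H3K27me3 and 0.15 without it in the second decile.

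In WT cells widths differed in the opposite direction. There the median log2 ratio was -0.12 over 13755 pairs, and 27.4% were wider with doxorubicin. The bivalent WT pairs were again the exception, with a median of -0.021 and 46.9% wider, while those without H3K27me3 had a median of -0.14 and 23.8% wider. The WT mock list had the widest H3K4me3 peaks of the series, with a list median of 1734 bp in WT doxorubicin and 2029 bp in WT mock. What part peak calling in each library had in these ratios was not tested, and neither was the difference between the genotypes.

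**Figure D3:**
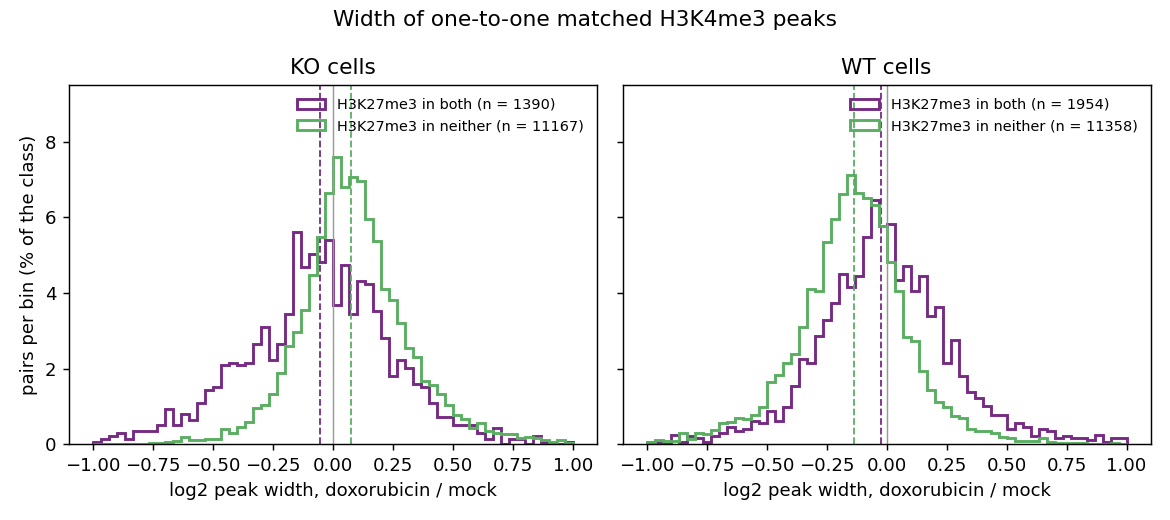
Distribution of the log2 ratio of H3K4me3 peak width, doxorubicin over mock (horizontal axis), for one-to-one pairs in KO (left) and WT (right) cells, as a percentage of the pairs of each class per bin (vertical axis). Purple lines are pairs at H3K27me3 in both conditions, green lines pairs at H3K27me3 in neither, dashed lines the medians, and pairs beyond a ratio of 1 in either direction are not drawn. In KO cells the medians were -0.053 and 0.075, in WT cells -0.021 and -0.14.

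Among pairs with a percentile of at least 25 in both KO lists, the largest ratio was at chr2:122202884-122204525, 1642 bp in KO doxorubicin against 643 bp in KO mock. It was followed by chr2:156600276-156604005 (3730 bp in KO doxorubicin, 1468 bp in KO mock), chr11:58114584-58117614 (3031 and 1200 bp), chrX:137909582-137912384 (2803 and 1151 bp) and chr11:119253544-119257402 (3859 and 1641 bp). None of the 5 overlapped H3K27me3 in KO cells, and neither did 11167 of all 12922 KO pairs. In WT cells the overlapping peaks were together narrower with doxorubicin than in mock at each of the 5 regions. This was the common order in WT, where 27.4% of all pairs and 23.8% of those without H3K27me3 were wider with doxorubicin. At chr2:156600276 they came to 1978 bp in WT doxorubicin and 3144 bp in WT mock, and at chr11:119253544 to 4929 bp in WT doxorubicin and 5442 bp in WT mock.

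The smallest ratio was at chr12:36218589-36219988, 1400 bp in KO doxorubicin and 3288 bp in KO mock. In WT cells 2 peaks of together 2216 bp overlapped the region in WT doxorubicin and 1 peak of 4335 bp in WT mock, so less sequence was under peaks with doxorubicin in both genotypes. In WT this was again the common order, as 23.8% of the WT pairs without H3K27me3 were wider with doxorubicin. Next came chr6:52188957-52190582, with 1626 bp in KO doxorubicin and 2877 bp in KO mock, and 1850 bp in WT doxorubicin and 3877 bp in WT mock. It was bivalent, and its H3K27me3 percentile was 96.8 in KO doxorubicin and 91.1 in KO mock, and 94.3 in WT doxorubicin and 83.7 in WT mock. The others were the bivalent chr5:34064102-34065425 (1324 bp in KO doxorubicin, 2300 bp in KO mock) and, without H3K27me3, chr7:134403488-134404293 (806 and 1375 bp) and chr13:63340902-63344464 (3563 and 5783 bp).

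Of the 5 widest peaks of each list, the first 2 were common to both. The widest peak of both lists was on chromosome 18, at 75525700-75538724 with 13025 bp in KO doxorubicin, against 13170 bp in KO mock. Second in both was chr9:66888111-66898127 with 10017 bp in KO doxorubicin, against 9944 bp in KO mock. All 10 peaks named as the widest of a list were at the ceiling in their own list, were covered in both WT lists and overlapped no H3K27me3 peak. The largest difference in width among them was at chrX:130216614-130225141, with 8528 bp in KO doxorubicin against 6339 bp in 2 peaks of KO mock, and 5639 bp in 3 peaks of WT doxorubicin against 6973 bp in WT mock. Over the whole lists, 559 peaks were wider than 4 kb in KO doxorubicin and 422 in KO mock.

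The order of the peaks by score was close between the KO treatments. Across the 12922 pairs the percentiles had a Pearson r of 0.922, which describes pairs of regions within a library each and not replicates. Ties at the ceiling distort the top of this order, because the tied peaks had percentile 81.3 in KO doxorubicin and 95.4 in KO mock. In 1054 pairs both peaks were at or above the ceiling, in 3941 the doxorubicin peak alone, and in 0 the mock peak alone. WT lists were closer to each other here, with 2263 pairs at the ceiling in both, 770 in doxorubicin alone and 156 in mock alone. The remaining 7927 KO pairs, below the ceiling in both lists, were therefore used for ranks, and had an r of 0.911. Their percentile ranges still differed, because 35.4% of KO doxorubicin and 8.05% of KO mock peaks were at or above the ceiling. A pair of this set that ranked high in KO mock thus had to rank lower with doxorubicin.

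**Figure D4:**
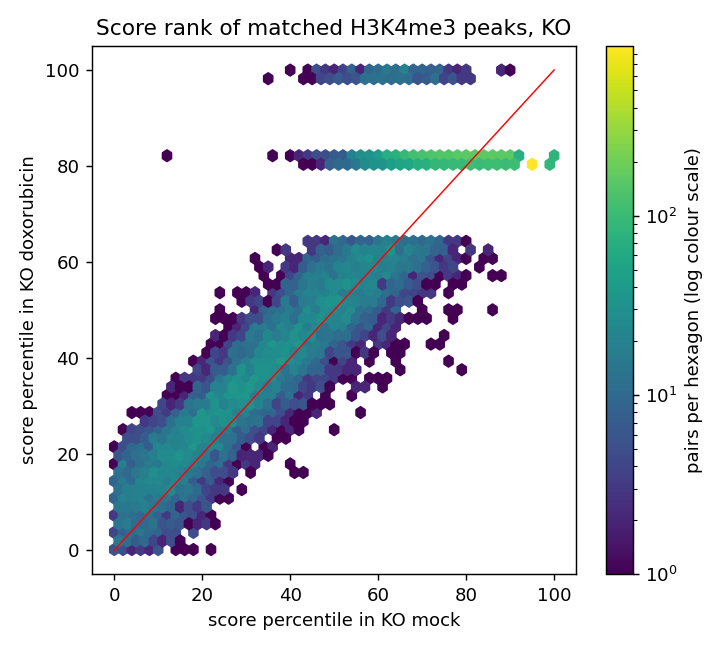
Score percentile of one-to-one H3K4me3 pairs in KO doxorubicin (vertical axis) against KO mock (horizontal axis), with the number of pairs per hexagon on a log colour scale and the line of equal percentiles in red. The flat band at 81.3 on the vertical axis holds doxorubicin peaks tied at the score ceiling, and the band above it those that exceeded it. Pairs below the ceiling had r = 0.911, and those of them that ranked high in mock lay below the line.

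Below the ceiling, the median percentile was 37.2 in KO doxorubicin and 33.7 in KO mock, and the median difference, doxorubicin minus mock, was 2.95 points (2.76 to 3.15). At least 10 points higher with doxorubicin were 1312 pairs (16.6%), and at least 10 points lower 431 (5.44%). At mock percentile 50 or less, 1272 of 6124 such pairs (20.8%) were at least 10 points higher and 140 (2.29%) lower. Over all pairs, ties included, the counts were 2641 higher and 1565 lower. Percentiles depend on the whole list by construction, and each weak peak without a partner, of which the KO doxorubicin list holds more, lifts the percentile of every stronger peak. With percentiles taken among the matched peaks alone, 1846 pairs were at least 10 points higher and 2214 at least 10 points lower.

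Relative to the other pairs, bivalent regions ranked lower with doxorubicin in KO cells. The 1353 pairs below the ceiling at H3K27me3 in both conditions had a median difference of -1.22 points (-1.68 to -0.705), with 5.54% at least 10 points higher and 11.4% at least 10 points lower. The 6256 pairs without H3K27me3 had a median of 3.91 points (3.72 to 4.17), with 19.0% at least 10 points higher and 4.03% lower. At mock percentile 50 or less, the median at H3K27me3 was -0.711 points, with 5.97% at least 10 points higher and 7.56% lower. Without H3K27me3 it was 5.72 points there, with 25.1% higher and 0.763% lower. Within the lowest 5 deciles of KO mock the bivalent medians were 3.11, 0.0081, -1.18, -3.56 and -5.85 points, and those of pairs without H3K27me3 were 8.33, 7.16, 6.29, 4.98 and 3.96. The bivalent pairs were thus below the others in each of the 5. With percentiles among the matched peaks alone both medians moved down, to -4.80 at H3K27me3 and 0.56 without it.

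In WT cells bivalent regions ranked higher with doxorubicin. There 1873 pairs at H3K27me3 in both conditions had a median difference of 12.2 points (11.7 to 12.6), with 62.3% at least 10 points higher and 0.214% at least 10 points lower. The 8303 pairs without H3K27me3 had a median of 3.13 points, with 16.0% higher and 4.01% lower. Within the lowest 5 deciles of WT mock the bivalent medians were 12.6, 10.9, 12.4, 14.1 and 14.6 points, above those of the other pairs (5.65, 4.62, 4.29, 4.23 and 4.15) in each. With percentiles among the matched peaks alone the WT medians were 5.85 points at H3K27me3 and -1.89 without it, so the sign of the median without H3K27me3 depended on how percentiles were taken. The H3K27me3 lists behind the split differed too, with a median peak width of 1310 bp in KO doxorubicin and 1391 bp in KO mock, and of 1475 bp in WT doxorubicin and 2015 bp in WT mock. Their part in the result was not tested beyond the alternatives given further on, and no test between the genotypes was possible.

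**Figure D5:**
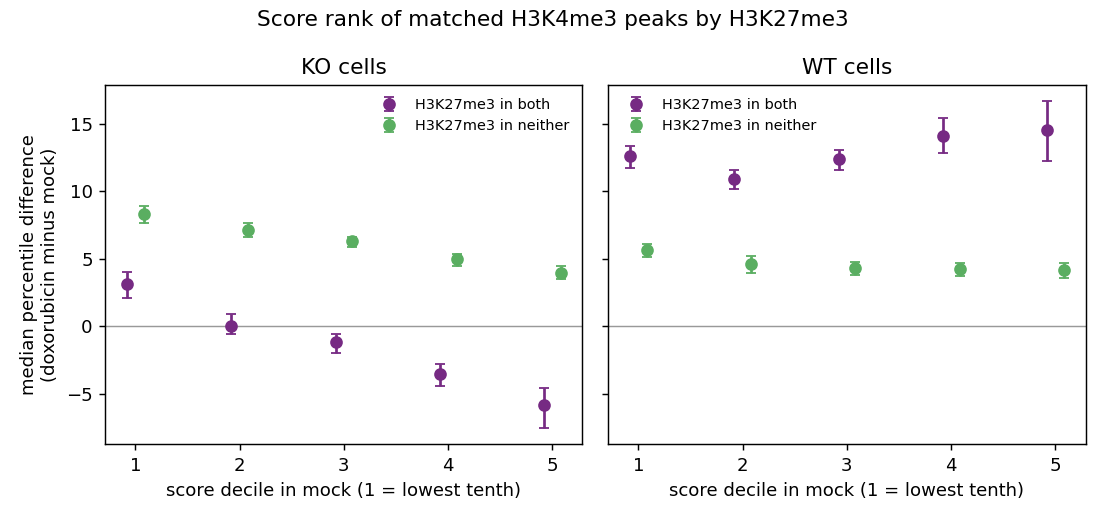
Median difference in score percentile of one-to-one H3K4me3 pairs, doxorubicin minus mock (vertical axis, points), by score decile in mock (horizontal axis, 1 lowest to 5), in KO (left) and WT (right) cells. Purple points are pairs at H3K27me3 in both conditions, green points pairs at H3K27me3 in neither, and bars are 95% intervals of the median over pairs. In the fifth decile the purple and green medians were -5.85 and 3.96 points in KO cells and 14.6 and 4.15 points in WT cells.

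The largest difference in percentile upward with doxorubicin was at chr17:29215014-29216283. H3K4me3 there was 1270 bp wide and at the score ceiling in KO doxorubicin, against 508 bp in KO mock, at percentiles of 81.3 in KO doxorubicin and 11.6 in KO mock. In WT cells the overlapping peak was 1779 bp wide at percentile 47.2 in WT doxorubicin, and 582 bp wide at percentile 44.3 in WT mock. The peak was thus wider in the doxorubicin list of both genotypes, and its rank was similar in the 2 WT lists. H3K27me3 was listed at this region in both KO lists, over 470 bp at percentile 24.2 of the KO doxorubicin list and over 530 bp at percentile 99.6 of the KO mock list. No WT H3K27me3 peak overlapped it. Across the KO treatments the 2 marks thus ranked in opposite order here. No gene was assigned to the region, because no annotation of this build was used. The targeted lincRNA-p21 locus was not located in these coordinates either, so whether this region lies at the altered locus of the KO cells was not tested, and its KO values should be read with that limit.

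The other 4 pairs with the largest upward difference, at chr7:118920978-118924000, chr14:69954740-69956030, chr15:54943623-54945271 and chr4:41686659-41688533, had KO doxorubicin scores above the ceiling of 3100, so that their differences of 55.5 to 64.1 points reflect the few places above the ties. Below the ceiling, by a rule set after the values were seen, the largest was chr6:121194998-121197560, at percentile 54.3 and 2563 bp in KO doxorubicin, against 24.8 and 1280 bp in KO mock. The WT peaks there were 3481 bp wide at percentile 59.6 in WT doxorubicin and 2987 bp wide at percentile 54.4 in WT mock. The second was chr15:102810829-102814512, at higher coordinates than the bivalent doxorubicin-only peaks of chromosome 15 described above, at percentile 60.9 in KO doxorubicin and 32.6 in KO mock, and 65.5 in WT doxorubicin and 40.4 in WT mock. An H3K27me3 peak overlapped it in KO mock, at percentile 96.2, and none did in KO doxorubicin. In WT cells H3K27me3 there was at percentile 39.7 with doxorubicin and 21.2 in mock. The KO mock and WT mock H3K27me3 scores, 1540.47 and 100.04, equalled those at chr15:102802549-102805019. The WT mock score also equalled that at chr15:102784775-102787252. Equal scores may come from the same wide peak, so they should not be read as separate local values.

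Of the 5 pairs that ranked lowest with doxorubicin relative to mock, 3 were bivalent in both conditions, as were 1390 of all 12922 KO pairs. All 5 of these lowest-ranking pairs had a KO mock percentile that no KO doxorubicin peak below the ceiling could reach. Part of each difference was thus set by the ceiling. The first, chr15:39028829-39030961, was at percentile 37.6 and 2133 bp in KO doxorubicin, against 78.6 and 2791 bp in KO mock, and at the ceiling in both WT lists. Its H3K27me3 percentile was 96.4 in KO doxorubicin and 86.7 in KO mock, and 91.5 in WT doxorubicin and 80.6 in WT mock. At chr12:82731725-82733429 H3K4me3 was at percentile 39.9 in KO doxorubicin and 75.6 in KO mock. An H3K27me3 peak at percentile 94.5 was listed there in KO doxorubicin and none in KO mock. The order was the same in WT cells, with H3K4me3 at 65.7 in WT doxorubicin and 75.8 in WT mock. H3K27me3 was likewise listed in WT doxorubicin, at percentile 57.6, and not in WT mock. The third was chr15:58911599-58914240, which had no H3K27me3 peak and was at 50.6 in KO doxorubicin and 86.2 in KO mock. It also ranked lower with doxorubicin in WT cells, at 74.9 in WT doxorubicin and at the ceiling, 90.1, in WT mock. The bivalent chr7:81157366-81159364 was at 42.0 in KO doxorubicin and 74.1 in KO mock, and at 77.1 in WT doxorubicin and 71.4 in WT mock. At the bivalent chr7:144504444-144506677 the percentiles were 44.3 in KO doxorubicin and 74.6 in KO mock, and 79.9 in WT doxorubicin and 77.5 in WT mock.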

How the data were processed

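Chromatin was fixed in 1% formaldehyde for 10 min, per the labels' protocols. The build was mm9 and the tools were Bowtie 0.12.7 and MACS 1.4.2, per the submitters' processing notes. Whether input chromatin served as the control is not given in the sources used here. The deposited lists hold 1 library each and give every peak's position and the authors' score, a −log10 p-value multiplied by 10, per the file headers. Starts were taken as 0-based and are printed counting from 1.

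Peaks were matched by an overlap of at least 1 bp in Python 3.11.15 (pandas 2.3.3, numpy 2.4.6, with scipy 1.17.1 for intervals and matplotlib 3.10.9 for figures), and the matching was tested on simulated lists. A percentile is the mean rank with ties over the number of peaks. A peak was called at H3K27me3, or bivalent, where it overlapped an H3K27me3 peak of its own condition by 1 bp. Intervals of medians come from order statistics. Named regions were the 10 highest-scoring peaks listed in 1 condition each way, the 5 largest and smallest width ratios (at least 1 kb in either library and percentile 25 in both), the 5 largest percentile differences each way, the 5 widest of each list, and the 5 peaks spanning most peaks of the other list, of which 1 each way is given. Members, rules and lists were chosen with earlier results of these data known, and the H3K27me3 split of pairs and the 100-kb windows after the values were seen. Read-level data, inputs, gene lists, promoters and sequences were not analysed here, because no annotation of this build was used and no coordinate was moved to another build.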

Additional observations from a re-analysis of the deposited data

Results flagged for a closer look

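In these results the KO and WT libraries pointed in opposite directions under the same contrast, and the difference between KO and WT was not tested, since each condition had 1 library. The median log2 width ratio of one-to-one H3K4me3 pairs, doxorubicin over mock, was 0.0650 in KO cells and -0.1216 in WT cells. The median difference in score percentile, doxorubicin minus mock, of pairs below the ceiling at H3K27me3 in both conditions was -1.2160 points in KO cells and 12.1551 points in WT cells.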

How the results depend on the processing

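No paired analysis was possible because each condition had 1 library. Of 65 alternative values 47 stayed within the margin set for their kind (1.5 times for a count, the interval of the value as reported otherwise), 17 moved and 1 turned its sign. Taking equal numbers of highest-scoring peaks gave 803 doxorubicin-only peaks, and a score of at least 200 gave 164 mock-only peaks and 64.2% of pairs wider with doxorubicin. The median absolute percentile difference over all KO pairs, 6.81 points at the stated settings, was 6.38 with percentiles among matched peaks, 5.51 without ceiling pairs and 7.11 with a score of at least 100. Leaving out ceiling pairs gave 1312 pairs higher and 431 lower. H3K27me3 within 1 kb raised its share among doxorubicin-only peaks to 18.4%, and asking for no peak of the other list within 1 kb raised it among mock-only peaks to 63.8%. With percentiles among matched peaks (chosen after seeing the data, as was the next alternative) the median differences at H3K27me3 were -4.80 in KO and 5.85 in WT, and without it 0.56 in KO and -1.89 in WT, the value that turned its sign. Among pairs at mock percentile 50 or less without H3K27me3, the median width ratio was 0.10 in KO and -0.19 in WT, and the median percentile difference 5.72 in KO and 4.44 in WT. The cause was not tested. Read depth is unknown and peak numbers were missing from every list, which limits every statement on absence to the lists as deposited.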
